A study of Mus musculus with 6 samples.

Results

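Nucleolar ribosome biogenesis genes were followed in splenic naive B cells as 35 named genes out of 41053 gene names in the deposited table. They were chosen by symbol, with earlier results of these data known. They comprise Myc, factors of ribosomal RNA transcription, processing and pre-ribosome assembly, and the polyamine enzymes Srm and Odc1. All 35 were found in the table, and all 35 were among the 13604 genes that passed the filter on low counts. RNA had been sequenced from naive B cells of mouse spleen, C57BL/6 strain, in 3 libraries with the TET2 knockout genotype and 3 with the TET2 wild-type genotype, numbered 2, 3 and 4 in each. TET2 oxidizes 5-methylcytosine in DNA. The labels name no treatment and give no age, no sex, no driver of the deletion and no statement that libraries came from different mice, so a p-value here reflects library-to-library spread, possibly technical. The question was how the transcripts of the nucleolar machinery compare between the genotypes.

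Ribosomes are built in the nucleolus, where RNA polymerase I transcribes the ribosomal RNA precursor. Guided by small nucleolar RNAs, box C/D particles methylate and box H/ACA particles pseudouridylate this precursor, while separate sets of factors cut and fold it into the small and the large subunit. MYC is a transcription factor known to drive many of these genes. Resting naive B cells make few ribosomes, and the nucleolus enlarges when they are activated.

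Promoter sequence was examined first, because the members were taken as one set. RefSeq promoters (build GRCm38.p6), from 250 bases before to 50 bases after the transcription start, were matched by symbol for 28 of the 35 members. The hexamer CACGTG, the E-box core bound by MYC with MAX, was present on either strand in 6 of the 28 (21.4%), against 8.09% of 27025 genes with a promoter in the table. Those 6 were Mybbp1a, Nop2, Pes1, Tsr1, Utp20 and Wdr43. The heptamer CCGGAAG, the core of sites for ETS family factors, was present in 8 (28.6%), against 9.93% of all genes. The longer CGCG element, a palindrome, was in 0 of the 28 and in 0.525% of all genes. Of these only Nop2 held CACGTG before its start, beginning at base -60, and in the other 5 it lay within the bases after the start, at base 3 in Pes1. These motifs do not overlap each other in the stretches shown. The genes compared with were not limited to the 13604 tested here, and the share among tested genes was not taken. A match describes the letters only and is no evidence of binding. The sequences below run 5′ to 3′ on the gene's strand, from 120 bases before the start to 10 bases after it. They are shown for the 3 members with a promoter in the table, no overlap between the genotypes and the smallest unadjusted p, and for Nop2, with CACGTG and CCGGAAG in capitals. The Ncl stretch holds neither. Ncl is at chr1:86359446-86359575 (minus strand), Pes1 at chr11:3963855-3963984, Nolc1 at chr19:46075727-46075856 and Nop2 at chr6:125131763-125131892 (plus strand).
Ncl: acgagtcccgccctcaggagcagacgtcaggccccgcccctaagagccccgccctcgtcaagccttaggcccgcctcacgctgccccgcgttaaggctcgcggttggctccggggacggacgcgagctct
Pes1: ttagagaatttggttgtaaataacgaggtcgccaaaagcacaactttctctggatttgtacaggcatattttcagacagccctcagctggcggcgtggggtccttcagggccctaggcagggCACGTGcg
Nolc1: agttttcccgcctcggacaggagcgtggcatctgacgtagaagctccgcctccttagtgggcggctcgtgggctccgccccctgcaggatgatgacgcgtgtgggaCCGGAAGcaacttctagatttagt
Nop2: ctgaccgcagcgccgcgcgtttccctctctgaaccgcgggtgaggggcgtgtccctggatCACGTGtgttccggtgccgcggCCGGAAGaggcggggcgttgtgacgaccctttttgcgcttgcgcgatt

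Libraries held 35101788 to 45401781 counts, and the members' counts ranged from 378 to 33921 per library. Levels are given in CPM, counts relative to the library total after TMM scaling, so they are shares of a library, and RNA per cell was not measured. The CPM of Tet2 averaged 58.1 ± 7.47 for knockout and 71.6 ± 13.5 for wild type (SD, n = 3; edgeR log2 change -0.30, SE 0.144, adjusted p = 0.408), and the labels do not say which part was deleted, so this level does not check them. Y-linked Kdm5d was between 23.3 and 34.9 CPM in knockout but no higher than 0.057 in wild type, and Xist at 802 to 887 against 1440 to 1540, so the genotype and the sex composition of the libraries cannot be told apart. In both genotypes the library numbered 4 was unlike the others, with the heat-shock gene Hspa8 at 418 and 427 CPM against 172 to 239. The split of the libraries numbered 4 from the others came from earlier results of these data and is no study group. The p-values below that rest on it are therefore description only. The B-cell marker Cd79a, a subunit of the B-cell receptor, was at 1591 to 1972 CPM in knockout and 1437 to 1642 in wild type. The 7 T-cell markers summed to at most 1.23 CPM, the 6 macrophage and monocyte markers to at most 39.1 and the 7 erythroid markers to at most 21.6. NK-cell, granulocyte, dendritic-cell and platelet markers each summed to at most 5.81, with the granulocyte gene Elane at 0 in all libraries. Plasma-cell markers, mostly Irf4 and Xbp1, summed to 392 to 444 CPM in knockout and 415 to 464 in wild type. Of these Igj, which encodes the joining chain of secreted antibodies, was at 32.8, 21.3 and 11.1 CPM in knockout and 7.95, 13.3 and 4.91 in wild type. It was 0.433-fold in the libraries numbered 4 (edgeR adjusted p = 0.0496). Igj alone had a positive log2 change among the 5 plasma-cell markers tested, whose median was -0.12. The part of Igj in the members' values was not tested. In bulk RNA, fewer cells of a type and less RNA per cell cannot be told apart.

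In knockout cells most of the 35 genes lay slightly above wild type, but no single one passed the test over all genes. The log2 change was positive for 30 of the 35 and 48.8% of all genes tested, with a median of 0.13 for the members and -0.01 for all tested genes. The folds ran from 0.906 (Myc) to 1.31 (Ncl). The test was edgeR's quasi-likelihood test of genotype, with Benjamini-Hochberg adjustment over all tested genes. It called 0 of the 35 members, with adjusted p from 0.114 to 0.995, where 0.404% of all genes were called. At an unadjusted p under 0.05, 11 members were higher and 0 lower, against 7.85% and 5.51% of all genes. DESeq2 called 1 member higher, Ncl, where it called 1.45% of all genes higher. limma-voom called 0 members, where it called 0.331% of all genes, with 12 members higher at an unadjusted p under 0.05 against 8.15% of all genes. Every knockout library was above every wild-type library for 11 members (31.4%) and below for 0, against 10.2% and 8.28% of all genes. Only 8 of these 11 were also among the 11 with an unadjusted p under 0.05. Because the members and the pathway lists below were chosen with earlier results known, their shares beside those of all genes are description only. They do not test the set.

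Summed over the 35 genes, the level was 3956, 3865 and 3860 CPM for knockout 2, 3 and 4, while wild type had 3360, 3407 and 3597. The genotypes did not overlap, and the wild-type library numbered 4 was the closest to knockout. Without nucleolin, which alone made 18.9% of the knockout sum, the levels were 3186, 3113 and 3173 against 2828, 2840 and 3009. The ratio of the mean sums was 1.13. Counted gene by gene, 32 members had their highest level in a knockout library and 29 their lowest in a wild-type library. These counts were not made over all genes. Scatter was small, with a median biological coefficient of variation of 8.62% over the members and 11.7% over all tested genes. The members had at least 378 counts in each library, and the value for all genes was not matched for level.

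**Figure D1:**
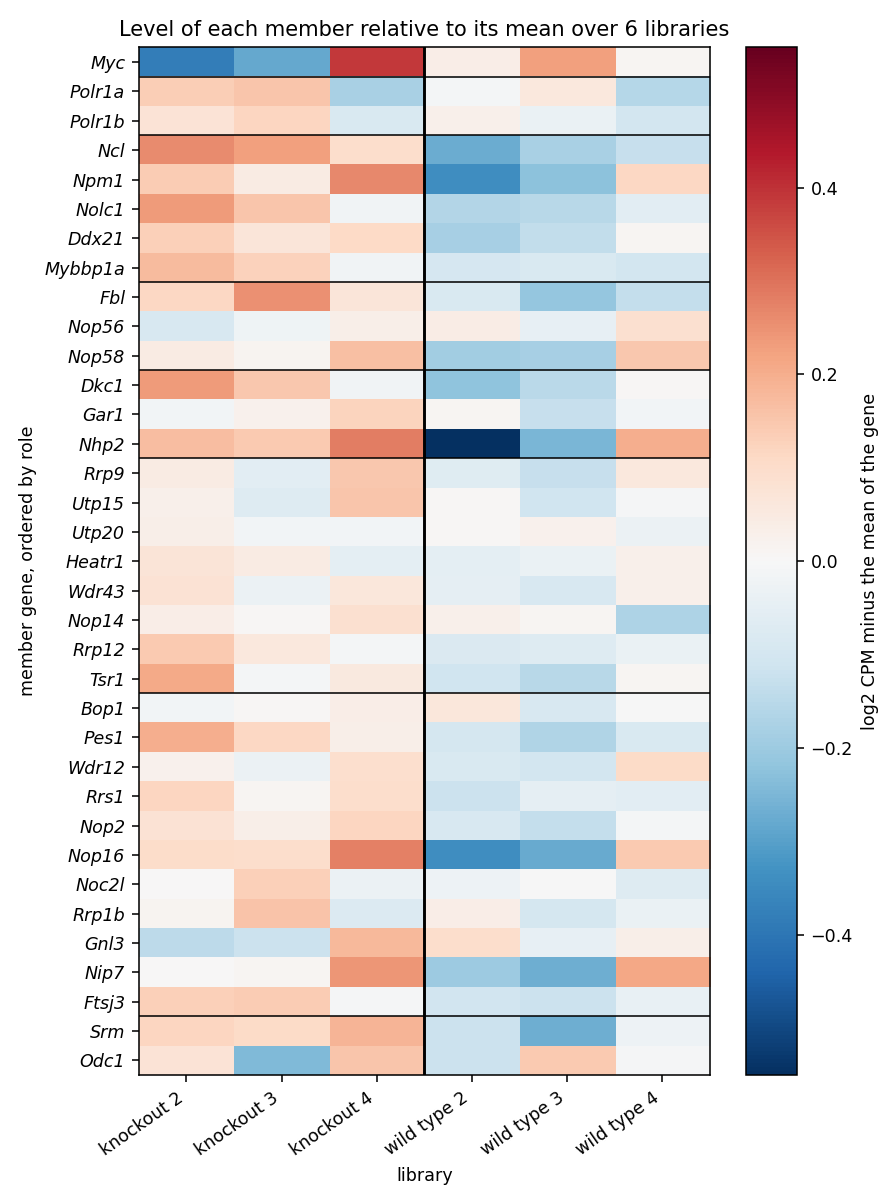
Log2 CPM of each of the 35 members (rows, ordered by role and divided by lines) in each of the 6 libraries (columns), relative to the gene's mean over the libraries. Most rows are red in the 3 knockout columns and blue in wild type 2 and 3, wild type 4 is paler, and Myc is blue in knockout 2 and 3 and red in knockout 4.

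Myc (chromosome 15, 61985341 to 61990374, GRCm38) did not follow most of the other genes. Its CPM was 84.1, 90.1 and 143 in the knockout (libraries 2, 3 and 4 in turn, as in all values below) and 112, 128 and 110.1 in the wild type. Knockout 2 and 3 were the lowest of all and knockout 4 was the highest, so the genotypes overlapped. The log2 change was -0.14 (95% interval -0.56 to 0.28, edgeR adjusted p = 0.768), an interval that allows a difference either way. Within libraries 2 and 3 the log2 difference was -0.46, or 0.726-fold, and within the pair numbered 4 it was 0.38, or 1.30-fold. That contrast was itself tested, and the log2 difference between the sets was 0.85 (SE 0.117, edgeR interaction adjusted p = 0.00245), where 1.19% of all genes were called. Myc was the only member called in that test, and the pair numbered 4 has 1 library per genotype, assumed to vary like the others. It passed with limma-voom too (adjusted p = 0.0236). In a fit of libraries 2 and 3 alone Myc fell, with a log2 change of -0.46 (edgeR adjusted p = 0.000372).

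The RNA polymerase I subunits differed little. Polr1a encodes the largest subunit and was at 94.4, 95.6 and 75.9 CPM in knockout, and at 85.5, 89.5 and 77.2 in wild type. Polr1b encodes the second-largest subunit and was at 56.0, 57.6 and 50.1 CPM against 54.2, 51.9 and 49.6. The genotypes overlapped in both genes, and the libraries numbered 4 were the lowest of their genotype. The log2 changes were 0.08 for Polr1a (95% interval -0.16 to 0.31) and 0.07 for Polr1b (-0.11 to 0.26). In the comparison of the libraries numbered 4 with libraries 2 and 3, with genotype in the fit, Polr1a was the only member called lower (0.840-fold, edgeR adjusted p = 0.0206), where 6.95% of all genes were called lower.

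All 5 genes of abundant nucleolar proteins had positive log2 changes, with a median of 0.25, and Ncl had the largest of the 35 members. Nucleolin, encoded by Ncl (chromosome 1, 86344719 to 86359400), binds ribosomal RNA precursors and chromatin. Its CPM was 770.2, 751 and 687 in the knockout and 532, 568 and 588 in the wild type. The lowest knockout library stood above the highest wild-type library. The log2 change was 0.39 (95% interval 0.21 to 0.57, 1.31-fold), and the edgeR adjusted p of 0.114 did not pass the threshold of 0.05. DESeq2 called Ncl higher (adjusted p = 0.00141), and so did edgeR with a term for the libraries numbered 4 (adjusted p = 0.0166). Leaving out 1 library at a time moved the edgeR adjusted p from 0.0217, without wild type 4, to 0.521.

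Nucleophosmin, a histone chaperone that carries pre-ribosomal particles, is encoded by Npm1. It was at 213, 199.6 and 232 CPM in knockout and at 153, 165 and 209 in wild type. Only wild type 4 reached into the knockout range, and the log2 change was 0.29 (95% interval 0.03 to 0.56, edgeR adjusted p = 0.334). Reads of Npm1 and Fbl could be shared with near-identical copies elsewhere in the genome, so their levels are less certain.

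Nolc1 encodes a chaperone of small nucleolar particles and was at 133, 126 and 112 CPM in knockout against 101, 102 and 109 in wild type. Ddx21, a helicase of ribosomal RNA transcription and processing, was at 304, 291 and 299.9 CPM against 245, 253 and 280.1. Mybbp1a, a nucleolar regulator of transcription, was at 353, 341 and 308 CPM against 293, 295 and 291. None of these overlapped between the genotypes, with log2 changes of 0.25, 0.20 and 0.19 and edgeR adjusted p of 0.254, 0.307 and 0.325. Within the pair numbered 4 the log2 differences were 0.04 for Nolc1, 0.10 for Ddx21 and 0.08 for Mybbp1a, and the interaction test called none of these (edgeR adjusted p = 0.117, 0.481 and 0.476). Mybbp1a shares 131 exon bases with Spns2 on the opposite strand, and the counting used no strand option, so their reads cannot be told apart there. This holds for stretches of 13 members, the longest being 1240 bases of Tsr1 shared with Srr.

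**Figure D2:**
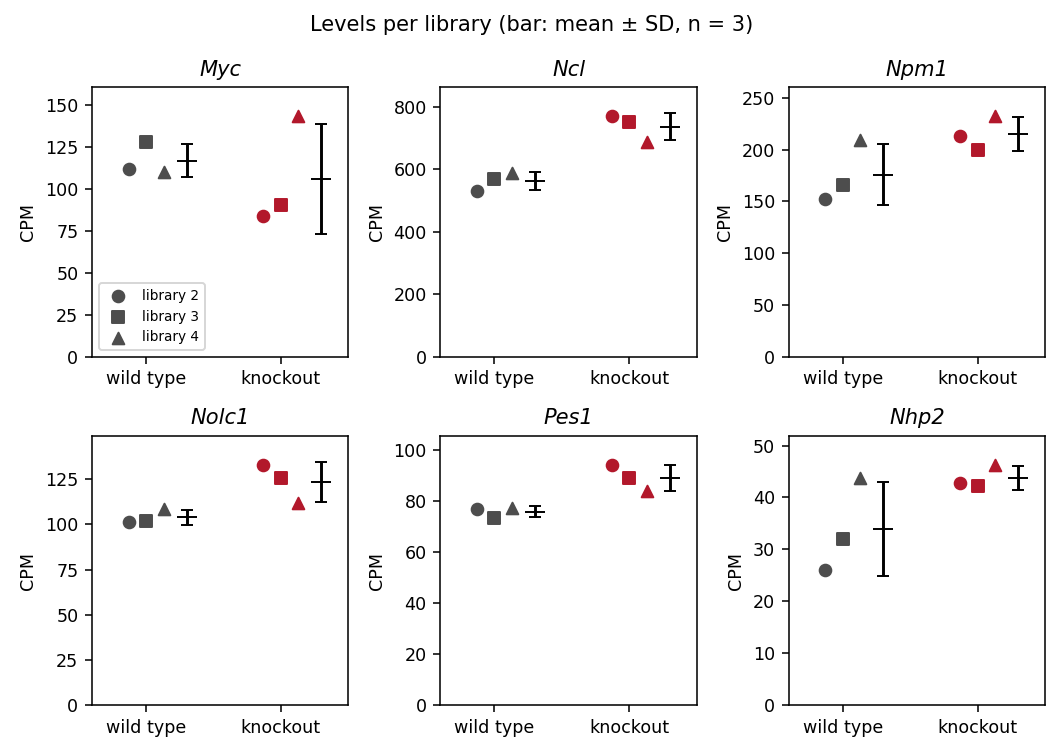
CPM of 6 members in each library (points; shape gives the library number) with the mean ± SD of each genotype (bars, n = 3), each axis starting at 0. Ncl, Nolc1 and Pes1 do not overlap between the genotypes, Npm1 and Nhp2 overlap through wild type 4 alone, and Myc is split between knockout 4 at 143 CPM and the other knockout libraries.

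Core proteins of the box C/D particles did not all lie on the same side of wild type. Fibrillarin, the methyltransferase encoded by Fbl, was at 12.8, 14.1 and 12.4 CPM in knockout and at 11.1, 10.2 and 10.8 in wild type. Its genotypes did not overlap, with a log2 change of 0.29 (95% interval 0.04 to 0.53, edgeR adjusted p = 0.317). Its partner Nop56 was at 113, 118 and 122 CPM against 123, 116 and 127, and the other scaffold, Nop58, at 111, 108 and 120.5 against 94.0, 94.5 and 119. For Nop56 the genotypes overlapped and the log2 change was -0.05 (95% interval -0.21 to 0.10). For Nop58 wild type 4 lay among the knockout libraries, and the log2 change was 0.14 (95% interval -0.08 to 0.37).

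Genes of the box H/ACA particles had 3 of 3 positive log2 changes. Dyskerin, the pseudouridine synthase encoded by the X-linked Dkc1, was at 90.0, 84.9 and 75.5 CPM in knockout and at 65.5, 69.0 and 76.7 in wild type. Nhp2 was at 42.8, 42.1 and 46.3 CPM against 26.1, 32.1 and 43.8, the widest spread of these genes in wild type. The genotypes overlapped through wild type 4 in both genes. The log2 changes were 0.25 for Dkc1 (edgeR adjusted p = 0.313) and 0.37 for Nhp2 (edgeR adjusted p = 0.376). Within libraries 2 and 3 the log2 differences were 0.38 and 0.55, and within the pair numbered 4 they were -0.02 and 0.08. Gar1, another core protein, was at 26.8, 27.5 and 29.4 CPM against 27.3, 24.7 and 26.8, with a log2 change of 0.09.

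Factors of the small subunit lay close to wild type. The 8 genes had log2 changes from -0.00 to 0.17 with a median of 0.08, and 0 of them reached an unadjusted p under 0.05. Rrp12, which takes part in export and maturation of the small subunit, was the only one whose genotypes did not overlap, at 53.7, 50.6 and 48.3 CPM against 46.0, 46.2 and 47.4. Tsr1, a late assembly factor, had the largest log2 change, 0.17 (95% interval -0.03 to 0.37). Utp20, Heatr1, Utp15, Wdr43, Rrp9 and Nop14 belong to the processome that forms on the nascent precursor. Utp20 lay between 96.3 and 100.5 CPM in all 6 libraries, with a log2 change of -0.00 (95% interval -0.14 to 0.14). Nop14 differed between the sets of libraries, from a log2 difference of 0.00 (libraries 2 and 3) to 0.26 (pair numbered 4), without a call in the interaction test.

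Large subunit factors were more varied, with 10 of 11 log2 changes positive and a median of 0.15. Pes1, Bop1 and Wdr12 form a complex required for processing of the large subunit RNA, and the genotypes were without overlap only for Pes1. Pes1 was at 94.2, 88.9 and 83.8 CPM in knockout and at 76.8, 73.3 and 77.4 in wild type, with no overlap. Bop1 was at 91.3, 92.7 and 94.7 CPM against 96.3, 86.9 and 92.0, and Wdr12 at 29.2, 28.1 and 30.6 against 27.1, 26.8 and 30.9. The log2 changes were 0.23 for Pes1 (95% interval 0.07 to 0.39, edgeR adjusted p = 0.249), 0.02 for Bop1 and 0.05 for Wdr12, and the differences between these genes were not tested.

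Nop16 was at 28.4, 28.4 and 32.2 CPM in knockout and at 20.9, 21.9 and 29.3 in wild type, and Nip7 at 50.4, 50.7 and 59.4 against 43.7, 41.8 and 58.2. Wild type 4 lay within the knockout range in both. The log2 changes were 0.31 for Nop16 (edgeR adjusted p = 0.367) and 0.16 for Nip7 (edgeR adjusted p = 0.622). Ftsj3, a ribosomal RNA methyltransferase, was at 148, 149 and 135 CPM against 126, 125 and 132, without overlap and with a log2 change of 0.18 (edgeR adjusted p = 0.324). Rrs1 and the RNA methyltransferase gene Nop2 did not overlap either, with log2 changes of 0.15 and 0.15. Noc2l and Rrp1b had log2 changes of 0.07 and 0.07. Gnl3, which encodes nucleostemin, was at 62.8, 64.0 and 78.5 CPM against 74.15, 67.2 and 70.9, with a log2 change of -0.05. As for Myc, knockout 2 and 3 were its lowest libraries and knockout 4 its highest. The genotypes overlapped in Noc2l, Rrp1b and Gnl3.

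**Figure D3:**
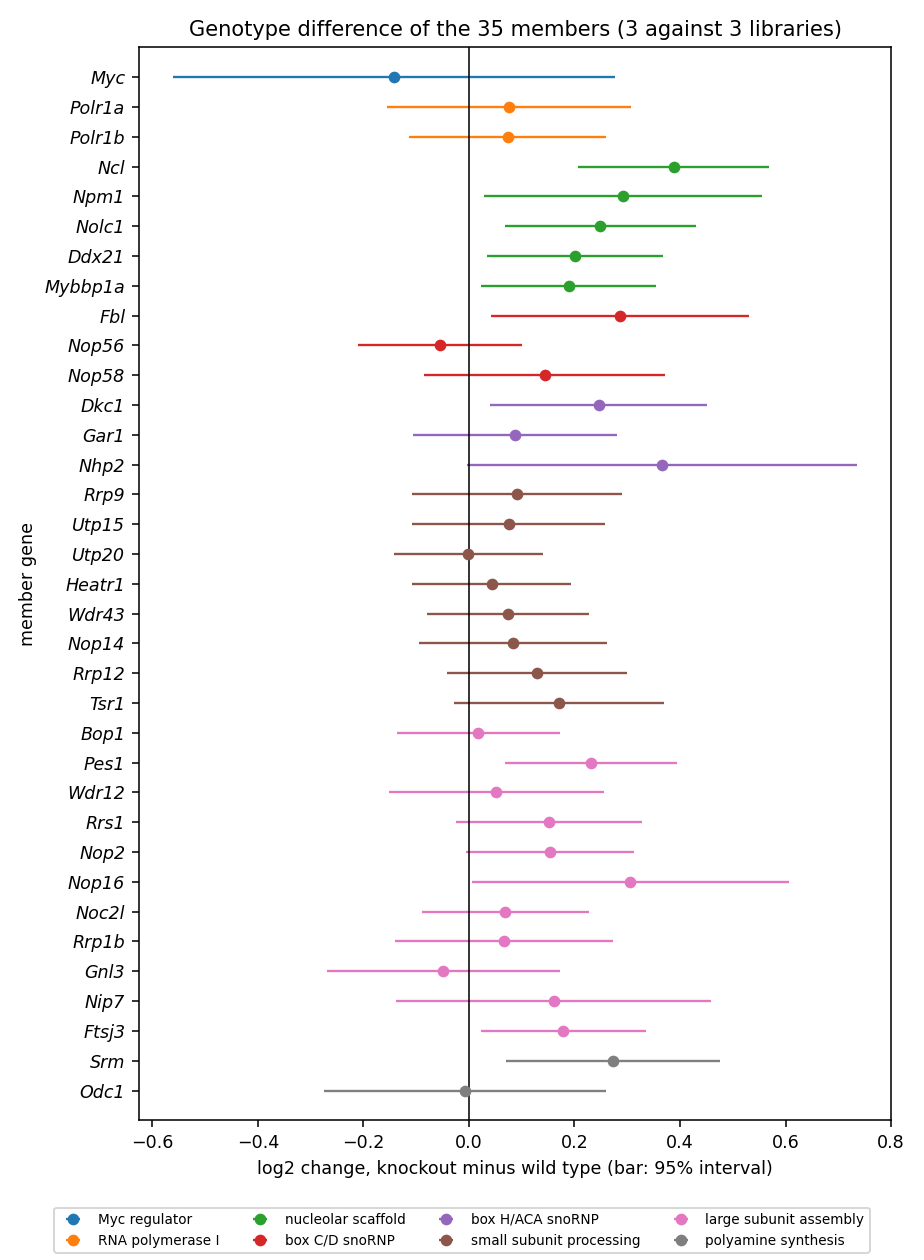
Log2 change, knockout minus wild type, of the 35 members (points, coloured by role) with 95% intervals (bars) from the edgeR fit on 3 against 3 libraries. For 11 genes the interval lies above 0, for 0 below it, and for 24 it includes 0.

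Polyamine enzymes were split. Spermidine synthase, encoded by Srm, was at 32.9, 32.6 and 34.4 CPM in knockout and at 27.9, 25.1 and 29.7 in wild type, with no overlap and a log2 change of 0.27 (95% interval 0.07 to 0.47, edgeR adjusted p = 0.264). Ornithine decarboxylase, the rate-limiting enzyme encoded by Odc1, was at 38.2, 30.6 and 40.3 CPM against 33.4, 40.02 and 36.1. The wild-type values lay inside the knockout range, with a log2 change of -0.01 (95% interval -0.27 to 0.26).

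Per length of exon, the members' levels in wild type ran from 2.37 RPKM for Wdr12 to 65.9 ± 11.1 for Npm1 (SD, n = 3), with a median of 17.2. Ncl at 55.2 ± 2.79 RPKM, Ddx21 at 54.7 ± 3.86, Noc2l at 53.1 ± 1.27 and Mybbp1a at 50.5 ± 0.305 followed. The ranges of mean ± SD overlap between each of Npm1, Ncl, Ddx21 and Noc2l and the next of these, but not between Noc2l and Mybbp1a. Fbl was at 9.25 RPKM and Nop58 at 9.53, below their partner Nop56 at 29.8. The length is the union of all annotated exons, so a gene with long rare exons, such as Wdr12 with 11955 bases, has a low value on this scale. Nop58 has 10758 bases and Ncl 10188, against 4099 for Nop56. In CPM the wild-type means of Nop58 and Nop56 were 102.5 and 122.1.

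The members' differences were also taken within each set of libraries. The log2 difference was positive for 30 of the 35 members in libraries 2 and 3, for 29 in the pair numbered 4, and of the same sign in both for 26. For the 13604 tested genes these counts were 6713, 6795 and 7692. Within libraries 2 and 3, all knockout libraries were above all wild-type libraries for 25 members (71.4%) and below for 2 (5.71%), against 32.5% and 31.5% of all tested genes. The members' median log2 difference, 0.15 in libraries 2 and 3, was 0.08 in the pair numbered 4, with all genes at -0.00 in both. The log2 difference was smaller in size in the pair numbered 4 for 27 members, a count not made over all genes. Its sign was opposite for 9. With libraries 2 and 3 alone edgeR called 15 members higher, where 13.6% of all genes were called higher, and 1 lower, where 10.4% were. The 15 were all 5 nucleolar scaffold genes, Fbl, Nop58, Dkc1, Nhp2, Tsr1, Pes1, Nop16, Nip7, Ftsj3 and Srm, and the 1 lower was Myc. With all libraries and a term for the number 4, the fit called 3 higher, Ncl, Npm1 and Nop16, where 2.59% of all genes were called higher.

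Compared with libraries 2 and 3, the libraries numbered 4 of both genotypes had 4 members called higher, where 7.83% of all genes were. These were Nip7, Npm1, Nop58 and Nop16, with log2 changes of 0.34, 0.28, 0.24 and 0.31 and edgeR adjusted p of 0.0111, 0.0206, 0.0248 and 0.0271. Of 8 heat-shock and cold-shock genes 5 were called higher in the libraries numbered 4, and the cold-inducible Cirbp was called lower (0.571-fold, edgeR adjusted p = 9.74e-05). Their part in the members' values was not tested. The 7 cycling and germinal centre markers summed to 170 to 211 CPM in knockout and 187 to 208 in wild type, a sum made mostly of Bcl6. Of the 7, 5 had a positive log2 change and 3 an unadjusted p under 0.05, all higher, with 0 called by edgeR, 1 by DESeq2 and 2 with the term for the number 4. The proliferation gene Mki67 was at 19.5, 21.4 and 10.4 CPM in knockout and 13.4, 11.4 and 9.56 in wild type. Top2a, which encodes a topoisomerase of dividing cells, was at 22.5, 22.5 and 15.5 CPM against 14.3, 13.3 and 13.7, without overlap. Mki67 and Top2a were highest in knockout 2 and 3 and were still above wild type in the pair numbered 4. Bcl6 went the other way, at 151, 160 and 140 CPM in knockout against 155, 180 and 175 in wild type. The list's median log2 difference, 0.69 within libraries 2 and 3, was -0.32 within the pair numbered 4. The part of these markers in the members' values was not tested.

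**Figure D4:**
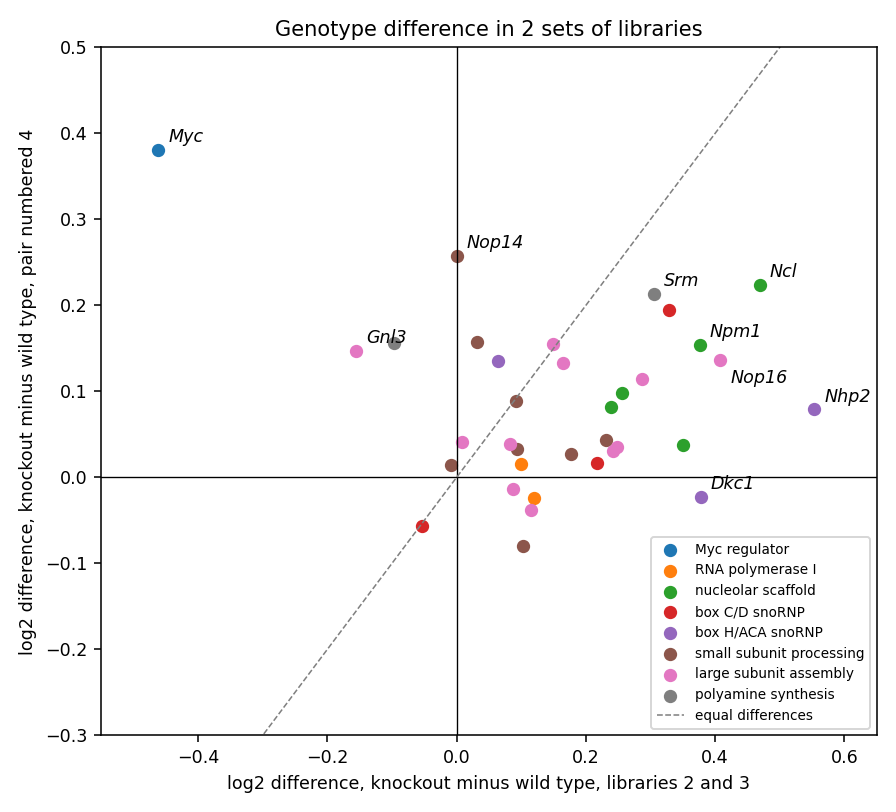
Log2 difference, knockout minus wild type, of each member in libraries 2 and 3 (horizontal) and in the pair numbered 4 (vertical), coloured by role, with a dashed line of equal differences. For 26 members the difference was smaller in the pair numbered 4, and the edgeR interaction was negative for 26 members and for 51.6% of all tested genes. Myc lies farthest to the upper left, at -0.46 and 0.38, in the same quadrant as Gnl3, Odc1 and Utp20.

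Other genes of the same pathways, in 9 lists with 206 genes in the table and 200 tested, had 0 calls with each of edgeR, DESeq2 and limma-voom. By edgeR 22 had an unadjusted p under 0.05, of which 17 were higher, where 13.4% of all genes had such a p and 7.85% were higher. Pooled over the lists, these shares were near those of all genes. The lists for nucleotide synthesis and for host genes of small nucleolar RNAs went opposite ways, as given below. In the 5 lists of ribosome assembly (RNA polymerase I machinery, small subunit, large subunit, snoRNP proteins and RNA exosome), 113 of 150 log2 changes were positive, against 48.8% of all genes. Every knockout library was above every wild-type library for 36 of the 150 (24%) and below for 1, against 10.2% and 8.28% of all genes. The medians were 0.10 for the polymerase machinery, 0.09 for the small subunit, 0.08 for the large subunit, 0.06 for snoRNP proteins and 0.04 for the exosome. In the pair numbered 4 alone they were 0.04, 0.01, 0.02, -0.01 and -0.02, in the same order.

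In the polymerase list the smallest p belonged to Twistnb, a polymerase I subunit, at 26.9 ± 0.694 CPM against 22.7 ± 2.64, and Polr1c, shared with polymerase III, at 44.98 ± 1.67 against 40.3 ± 2.57 (SD, n = 3). In the large subunit list it was Gltscr2, at 406 ± 30.01 CPM against 331 ± 20.7, and the helicase gene Ddx24, at 181 ± 6.37 against 156 ± 3.79. Both were called higher with the term for the number 4 (edgeR adjusted p = 0.0373 and 0.0485). Rcl1 and Tbl3 led the small subunit list with log2 changes of 0.24 and 0.17, Ruvbl2 and Nop10 the snoRNP list with 0.21 and 0.32, and Exosc9 and Exosc5 the exosome list with 0.14 and 0.11. Nop10, the partner of dyskerin, was at 50.3, 48.9 and 55.6 CPM in knockout and at 31.9, 35.7 and 56.7 in wild type, where wild type 4 was the highest library of all.

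Nucleotide synthesis genes were positive in 19 of 21 cases, with a median log2 change of 0.17. The median was 0.23 for libraries 2 and 3 alone but 0.02 for the pair numbered 4. By edgeR 5 of the 21 had an unadjusted p under 0.05, all higher, against 7.85% of all genes. Every knockout library was above every wild-type library for 8 and below for 0, against 10.2% and 8.28% of all genes. Prps2, which makes phosphoribosyl pyrophosphate, was at 116 ± 7.67 CPM against 91.9 ± 8.86, and the purine enzyme gene Atic at 117 ± 4.22 against 92.8 ± 12.1 (SD, n = 3). Prps2 and Atic were also called higher with the term for the number 4 (edgeR adjusted p = 0.0427 and 0.0410), where 2.59% of all genes were. Host genes of small nucleolar RNAs went the other way, with 2 of 9 positive and a median of -0.32. By edgeR 4 of the 9 had an unadjusted p under 0.05, all lower, against 5.51% of all genes. Every knockout library was below every wild-type library for 4 and above for 0, against 8.28% and 10.2% of all genes. Snhg12 was at 28.9 ± 3.56 CPM against 37.0 ± 3.95 and Snhg7 at 3.21 ± 0.462 against 4.59 ± 0.557. Libraries 2 and 3 gave a median log2 difference of -0.45 and the pair numbered 4 one of 0.04. The MYC, MAX and MXD network was positive in 5 of 10 genes, with Max at a log2 change of 0.17 and its repressor partner Mxd1 at -0.23. Polyamine metabolism was positive in 4 of 10, with the spermine synthase gene Sms at -0.27 and the antizyme gene Oaz2 at 0.26.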

How the data were processed

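RNA of naive B cells was sequenced in 6 libraries, 3 per genotype, after Trizol and RNeasy extraction and stranded mRNA library preparation, per the labels' protocols. The values are the authors' deposited counts, whole fragments per gene name without normalization, made with featureCounts 1.5.1 over GENCODE vM3 exons without a strand option, per the file headers. Alignment used STAR 2.3.0e on GRCm38.p3, per the submitters' processing notes. The table held 6 further columns of counts that match no sample and were not used. Genes were filtered with filterByExpr (minimum count 10), scaled by TMM and tested with edgeR 4.0.16 in R 4.3.3 (robust quasi-likelihood test, Benjamini-Hochberg adjustment over 13604 genes, threshold 0.05). CPM and RPKM were computed from the counts, and 3 counts equal 0.0679 to 0.0856 CPM. The alternatives were DESeq2 1.42.0, limma-voom (limma 3.58.1), other scalings and filters, a replicate block, a term for the libraries numbered 4, other sets of genes and libraries, and each library left out. The split of the libraries numbered 4 from the others was chosen with earlier results of these data known. Other settings for the interaction were added after seeing the data. The fits were tested on simulated data. All 35 members are named, with, per pathway list, the 2 genes of smallest p. The most abundant gene of a marker list is named only for plasma cells (Irf4), cycling or germinal centre cells (Bcl6) and heat shock (Hspa8). Mki67, Top2a, Igj, Xbp1, Cirbp, Cd79a, Elane, Kdm5d and Xist were named after their values were seen. The members and lists were chosen with earlier results of these data known. A listed B-cell marker, and the sum that includes it, is not reported here.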

Additional observations from a re-analysis of the deposited data

Results flagged for a closer look

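The genotype difference of Myc was not the same in the libraries numbered 2 and 3 as in the pair numbered 4, by an interaction test. The log2 difference in the pair minus that in the others was 0.85 (edgeR interaction adjusted p = 0.00245), since knockout was lower in libraries 2 and 3 and higher in the pair.

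Nop10, a box H/ACA protein gene of the pathway lists, met the same test in the other direction, with -0.58 (edgeR interaction adjusted p = 0.0322). Libraries 2 and 3 had a log2 difference of 0.55 and the pair one of -0.03. Each arm of the pair is 1 library, assumed to vary like the others. The split itself was taken from earlier results of these data, so these p-values are description only.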

How the results depend on the processing

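The call counts depended on the filter, the tool and the libraries, and the cause was not tested. Against 25 higher and 30 lower genes, no filter beyond 1 count gave 160 and 102 (1 member and 1 list gene higher), DESeq2 197 and 152 (1 member higher), the term for the number 4 353 and 246 (3 members, 4 list genes higher), and libraries 2 and 3 alone 1871 and 1436 (15 members higher and 1 lower, 43 list genes higher and 12 lower). Whether the numbers pair the libraries was not settled. Deviations of same-numbered libraries correlated at 0.0857, 0.22 and 0.394 for the numbers 2, 3 and 4. Not every library correlated best with its own number, but both libraries numbered 4 did. With 3 libraries per genotype these correlations cannot decide on a pairing. The replicate block gave 35 higher and 50 lower genes and 0 members. For the interaction limma-voom called 60 genes against 162.

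Leaving out each library gave 9 to 630 higher and 8 to 270 lower genes, 0 to 5 members higher and 0 lower, and 0 to 12 list genes higher and 0 lower. The 5 members, Ncl, Npm1, Ddx21, Nhp2 and Nop16, were called without wild type 4. The members' median log2 change, 0.13, ran from 0.10 to 0.15 without each library. It was 0.0823 with library size only, which moved the median of all genes to -0.05, and 0.0790 in the pair numbered 4 alone.

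The sign held for 25 members in all 19 settings and turned for 10. With library size only Heatr1 was at -0.0030 and Bop1 at -0.0282, without a filter Utp20 at 0.0085 and Odc1 at 0.0035, and with antigen receptor genes left out Utp20 at 0.0015. In the pair numbered 4 alone Myc was at 0.38, Polr1a -0.0243, Dkc1 -0.0224, Utp20 0.0143, Heatr1 -0.0798, Wdr12 -0.0136, Rrp1b -0.0381, Gnl3 0.15 and Odc1 0.16. With libraries left out singly Utp20 ran from -0.0191 to 0.0072, Bop1 from -0.0267 to 0.0540, Gnl3 from -0.158 to 0.0079 and Odc1 from -0.0860 to 0.10. Each member had at least 378 counts in every library.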
